A study of Saccharomyces cerevisiae with 11 samples.

Results

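The cysteine series comprised the 100 entries of the library's some_G_to_C design set, out of 12400 entries in all. Each is a designed peptide of 20 residues made from glycine (G), tryptophan (W) and aspartate (D) in which some glycines were replaced by cysteine (C). The parent of each variant was the entry of set32 whose sequence is obtained when every C is turned back to G, and all 100 parents were found. The library was carried in Y2H Gold, a budding yeast reporter strain in which a working activation domain gives resistance to the antifungal aureobasidin A. The plasmid insert was recovered by PCR from the DNA of the culture and sequenced, so a value is the share of library molecules held by a sequence.

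The 11 samples were cultures labelled 150 aureobasidin at 12, 24, 48 and 72 h, cultures labelled 200 aureobasidin at 12, 24, 48 and 72 h, untreated cultures at 12 and 24 h, and the untreated culture at 0 h. The labels give the dose in conflicting units, so it is printed here as a bare label, and the shared growth protocol describes antibiotic for every sample; the groups follow the titles. All samples share the strain and growth in medium without tryptophan. Each sample was read as 5 libraries that differ in a barcode, which the labels tie to biological replicates and say was appended when the synthesised pool was amplified, before cloning. Nothing states that the barcodes were grown as separate cultures, so each p-value measures the spread between barcoded libraries. The protocol describes daily dilution to hold the cells in growth phase. No untreated culture is later than 24 h. In changes from 0 h to 48 or 72 h, antibiotic and time in culture therefore cannot be told apart.

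Acidic activation domains are short, mostly disordered stretches in which aromatic and leucine side chains contact coactivators such as Mediator, while acidic residues keep those side chains exposed to solvent. Glycine has no side chain and leaves the chain flexible. Cysteine carries a thiol and is close in size to serine, which carries a hydroxyl group instead. The serine variants of the same parents, changed at the same positions, therefore give the nearest comparison in the library for the side chain alone.

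The peptides on which the results turn are called here by letters, and each is given by its entry number in the library and the positions of its cysteines, counted from 1 at the N terminus. Peptides J to M were the 4 variants with the highest mean abundance at 72 h under label 200. Peptide J (entry 8701) has its single cysteine at position 7, between a tryptophan and an aspartate, and K (entry 8765) has cysteines at positions 4 and 9. Peptide L (entry 8771) has them at 3, 7 and 18, and M (entry 8707) at 2, 11 and 17. Peptide N (entry 8706), with cysteines at 4, 12, 17 and 18, was the most abundant variant at 0 h. Peptides P (entry 8750, cysteines at 1, 2, 3 and 20) and Q (entry 8710, at 10, 12 and 19) had the largest decreases relative to their parents under label 200. Peptide R (entry 8748, at 2, 3, 5, 6, 14 and 15) is 1 of the 3 variants with the most cysteines.

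The design fixes how composition varies within the series. The cysteines numbered 371 in all, with 1 cysteine in 1 peptide, 2 in 11 peptides, 3 in 30, 4 in 35, 5 in 20 and 6 in 3. In 100 of 100 variants the number of cysteines equalled the number of glycines left, and the number of tryptophans equalled the number of aspartates. A peptide with more cysteines therefore also has more remaining glycine, a more glycine-rich parent, and fewer tryptophans and aspartates, so these counts cannot be told apart. Of the cysteines, 185 stood next to a tryptophan, 189 next to an aspartate, 143 next to a glycine and 108 next to another cysteine, and 46 variants had at least 1 pair of adjacent cysteines.

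Total reads per library ran from 683589 to 3392656 over the 55 libraries, and the treated libraries at 24 h were the shallowest. Of the 100 variants, 98 had a mean of at least 10 reads in the comparisons with 0 h and 97 in those at 12 and 24 h, and only these were tested singly. This read minimum is a mean over the libraries of both compared groups, so reads in the reference group alone can meet it. Entry 8721 (cysteines at 3, 12 and 15) had no read in any library. Floors set from reads reflect counting alone, since reads amplified by PCR and not tagged by molecule are no independent draws. Entries that begin with a stop codon, which cannot encode a peptide, made up 0.00428% ± 0.00132 of reads at 72 h under label 200 and no read at 72 h under label 150, against 0.4% ± 0.0264 at 0 h (SD, n = 5 each).

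Under antibiotic the cysteine series lost most of its share of the pool by 24 h, while its parents together did not. At 24 h the 100 variants together held 1.33% ± 0.21 of reads under label 150, against 4.63% ± 0.703 in untreated cells at the same time (SD, n = 5 each). Under label 200 at 24 h they held 1.28% ± 0.213, against the same untreated value. The parents together held 3.7% ± 0.474 under label 150 and 3.57% ± 0.346 under label 200, against 3.11% ± 0.526 in untreated cells. The serine variants lay between the cysteine variants and the parents relative to their own untreated level, at 1.09% ± 0.0574 under label 150 and 1.14% ± 0.0669 under label 200, against 1.67% ± 0.253 in untreated cells.

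The loss went on to 72 h. Under label 150 the cysteine series held 3.59% of reads at 12 h, 1.33% at 24 h, 0.607% at 48 h and 0.35% ± 0.11 at 72 h, and under label 200 it held 3.96%, 1.28%, 0.454% and 0.179% ± 0.0677 at the same times. In untreated cells it held 3.81% ± 0.39 at 0 h, 4.51% ± 0.632 at 12 h and 4.63% ± 0.703 at 24 h. The 72 h share was 9.19% of the 0 h share under label 150 and 4.68% under label 200. For the parents these figures were 95.6% and 72.1%, and for the serine variants 17.1% and 11.5%. The parents' sums do not describe the typical parent, which fell as well. The median parent had 208 CPM (reads scaled to a common library total) at 0 h. At 72 h it had 38.5 CPM under label 150 and 12.4 CPM under label 200. The median cysteine variant had 296 CPM at 0 h, and 0 and 0.932 CPM at 72 h under labels 150 and 200.

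Without antibiotic no variant rose, and 1 variant fell, in the edgeR quasi-likelihood test when barcodes were not paired. The test used Benjamini-Hochberg adjustment over all entries at a threshold of 0.05. At 12 h against 0 h, 0 of 98 variants rose and 1 fell, where the test called 0% of all 9115 tested entries higher and 26.5% lower. At 24 h against 0 h, 0 of 98 rose and 0 fell, against 0% and 26.7% of all tested entries. An unadjusted p below 0.05 was reached upward by 0 variants and downward by 2 at 12 h, and by 0 and 1 at 24 h. DESeq2 called 3 rises and 0 falls at each time. The median fitted log2 change of the tested variants was 0.14 at 24 h, against -1.87 for all tested entries.

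Barcode numbers pair the libraries, because each barcode keeps its own starting abundances through the experiment, and a fit with the barcode number as a block called many more changes. In that fit 40 variants rose and 18 fell in untreated cells at 12 h against 0 h, against 11.1% and 71.1% of all tested entries. At 24 h against 0 h 32 variants rose and 19 fell, where it called 9.12% of all tested entries higher and 74.6% lower. From 2 to 6 cysteines the split at 24 h followed cysteine number, while peptide J, with a single cysteine, passed in neither direction. Of the 11 peptides with 2 cysteines 7 rose and 0 fell, of the 29 tested with 3 cysteines 12 rose and 4 fell, and of the 35 with 4 cysteines 12 rose and 5 fell. Of the 19 tested peptides with 5 cysteines 1 rose and 8 fell, and of the 3 with 6 cysteines 0 rose and 2 fell. Across the 100 variants, which share libraries and composition, the untreated change in log2 CPM (reads scaled to a common library total, prior count 2) had a Spearman correlation of -0.47 with the number of cysteines. The corresponding value for the change of the parents was 0.04.

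At 12 h the antibiotic produced no call without the block and many with it. Under label 150 against untreated cells at 12 h, 0 of 97 variants passed in either direction, as did 0% of all 5124 tested entries, and 0 higher and 1 lower had an unadjusted p below 0.05. DESeq2 also called 0 in either direction. With the block, 9 rose and 74 fell, against 17.1% and 42.1% of all tested entries. Under label 200 the counts were 0 and 0 without the block, both in edgeR, where 0% of all 5607 tested entries passed, and in DESeq2, and none had an unadjusted p below 0.05. With the block 2 rose and 58 fell, against 2.44% and 7.26% of all tested entries. The median log2 CPM change was -0.58 for the variants and 0.12 for the parents under label 150, and -0.33 and 0.02 under label 200.

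With the block at 12 h, the calls again ran with cysteine number. Under label 150, 35 of 35 peptides with 4 cysteines, 18 of 18 tested with 5 and 3 of 3 with 6 fell. Of the 29 tested peptides with 3 cysteines 15 fell and 5 rose, and of the 11 with 2 cysteines 3 fell and 3 rose. Peptide J, the variant with a single cysteine, rose. Under label 200, 27 of 35 peptides with 4 cysteines, 16 of 18 tested with 5 and 2 of 3 with 6 fell. Of the 29 tested with 3 cysteines 10 fell and 0 rose, and of the 11 with 2 cysteines 3 fell and 2 rose. Peptide J passed in neither direction there.

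At 24 h under label 150, 71 of 97 tested variants fell and 0 rose against untreated cells at 24 h, where 37.7% of all 4416 tested entries fell and 0% rose. No variant had an unadjusted p below 0.05 upward, and DESeq2 called 0 higher. The median fitted log2 change was -4.29 for the variants and -1.81 for all tested entries. With the block 85 fell and 5 rose, against 58.2% and 19.2%. Of the 71 variants that fell, 65 had a parent that did not pass the test, 3 had a parent that fell and 3 had a parent below the read minimum. Among the parents of all variants, 93 did not pass, 4 fell and 3 were not tested. Of the variants that did not pass, 25 had a parent that did not pass and 1 had a parent that fell. These counts therefore do not set the fallen variants apart, and not passing does not show that a parent stayed level.

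For label 200 at the same time, 38 of 97 variants fell and 0 rose, against 8.07% and 0% of all 4695 tested entries. This count rested on all 5 barcodes, since leaving out any 1 of them gave 0. With the block 84 fell and 4 rose, against 34.9% and 16.8%. At an unadjusted p below 0.05, 71 were lower and 0 higher, and DESeq2 called 58 lower and 0 higher. Of the 38 variants that fell, 37 had a parent that did not pass and 1 had a parent that was not tested. Among the parents of all variants, 94 did not pass, 2 fell and 4 were not tested, so here too the fallen variants were not set apart.

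The test of each variant against its own parent used limma on the variant's log2 CPM minus that of its parent in every library, which cancels library scaling. At 24 h under label 150, 31 of 100 pairs were lower and 0 higher than in untreated cells, against 4.91% and 0.264% of 1894 variant and parent pairs of all substitution series. With the block the counts were 81 lower and 1 higher, against 27.1% and 10.1%, and without single barcodes the count of lower pairs was 8 to 13. The median difference was -4.01 for the cysteine pairs and -0.21 for all pairs. In 30 of the 31 lower pairs both peptides reached the read minimum, which untreated reads alone can meet, and in the other one the parent had no read.

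For label 200, 9 cysteine pairs at 24 h were lower and 0 higher, against 1.06% and 0.158% of 1893 pairs, with a median difference of -3.52. Leaving out single barcodes left 0 or 1 lower. With the block 81 were lower and 2 higher, against 24.8% and 14.6% of all pairs. In untreated cells at 24 h against 0 h, limma called 0 of 100 pairs in either direction, as it did 0% of all 1897, and none had an unadjusted p below 0.05. With the block, 24 of these pairs were higher and 16 lower, against 14.5% and 32.3%.

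The size of the 24 h change followed the number of cysteines. Under label 150 against untreated cells the median log2 CPM change was 1.16 for the peptide with 1 cysteine, -0.92 for those with 2, -2.54 for 3, -4.64 for 4, -4.66 for 5 and -5.48 for 6. The tested peptides that fell were 0 of 1, 5 of 11, 14 of 29, 32 of 35, 17 of 18 and 3 of 3 in the same order. The parents of these classes had medians of 1.39, 0.57, 0.40, 0.18, -0.47 and -1.64, so the parents' medians also ran lower with glycine content, over a narrower range.

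Under label 200 the class medians from 1 to 6 cysteines were 1.13, -1.20, -2.47, -4.08, -3.57 and -5.29, so the class with 5 cysteines broke the order. Across the 100 variants the Spearman correlation of the change with cysteine number was -0.53 under label 150, and -0.36 for the change minus that of the parent. Under label 200 the values were -0.41 and -0.24. The change of the parents, which hold glycine at these positions, correlated with the same number at -0.45 under label 150 and -0.42 under label 200. These correlations are descriptions over peptides that share libraries, and a prior count of 2 limits how far a sparsely read peptide can fall.

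At 72 h the class medians of the log2 CPM change no longer ranked by cysteine number. By then 60 of the 100 variants had no read under label 150, and 53 averaged under 1 CPM under label 200. The prior count limits how far such peptides can fall, so these medians cannot show whether the ranking was lost. Under label 150 against 0 h the class medians were 1.54 for 1 cysteine, then -6.75, -6.56, -7.44, -7.23 and -7.19 for 2 to 6. The correlation with cysteine number was -0.19 under label 150 and -0.05 under label 200. For the change of the parents it was -0.40 and -0.36, and for the change minus that of the parent 0.09 and 0.26. From 2 to 6 cysteines, class sums of read share did follow cysteine number under label 150. From 0 h to 72 h they went from 0.58% to 0.148% with 2 cysteines and from 1.12% to 0.0635% with 3. The steps were 1.52% to 0.00578% with 4, 0.46% to 4.12e-05% with 5 and 0.0857% to 0% with 6. At 72 h under label 200 the sums were 0.0594%, 0.0262%, 0.0046%, 0.00165% and 0.000159%. The parents' sums under label 150 were also lower at 72 h for 4, 5 and 6 cysteines, but not for 2 or 3. The parents' median log2 CPM change was nevertheless -1.61 for 2 cysteines and -1.58 for 3.

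The 24 h change was also set against the longest run of adjacent cysteines. Under label 150 the median log2 CPM change was -3.04 for the 54 variants with no adjacent cysteines, -4.53 for the 39 with a longest run of 2, -5.68 for the 6 with a run of 3 and -7.35 for the 1 with a run of 4. Of these, 6 of 6 with a run of 3 and 1 of 1 with a run of 4 fell, where 37.7% of all tested entries fell. Under label 200 the medians for runs of 1 to 4 were -2.82, -3.65, -4.91 and -4.73, so the run of 4 broke the order, and 5 of 6 and 1 of 1 with runs of 3 and 4 fell, against 8.07% of all tested entries. Under label 150 the serine variants of the 4 classes, with runs of the same length, had medians of -0.25, -2.44, 0.41 and -0.89, and their parents had medians of 0.40, 0.04, 0.56 and -0.07.

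The longest run had a Spearman correlation with the change of -0.44 under label 150 and -0.35 under label 200. With the change minus that of the parent the values were -0.36 and -0.32. Run length and cysteine number rise together, so run length was also read among the peptides with 4 cysteines. There the medians under label 150 were -4.53 without adjacent cysteines (13 peptides), -4.20 with a run of 2 (17), -5.84 with a run of 3 (4) and -7.35 with a run of 4 (1). Under label 200 they were -4.32, -3.71, -5.14 and -4.73. The median for a run of 2 was therefore not below that for no run at this cysteine number under either label, and the longer runs rest on 5 peptides. Among the peptides with 3 cysteines the medians were -3.01 with adjacent cysteines (4 peptides) and -2.54 without (26).

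Position along the peptide carried little of the variation. The median change under label 150 at 24 h of the peptides with a cysteine at a given position lay between -4.83 at position 2 and -3.19 at position 17. The Spearman correlation with the mean position of the cysteines was 0.21 under label 150 and 0.19 under label 200. The 9 peptides with every cysteine in positions 1 to 10 had a median of -3.93 and the 90 with cysteines on both sides of that border one of -4.09. A single peptide had every cysteine in positions 11 to 20, and its change was -2.29.

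Tryptophan and aspartate neighbours gave weaker correlations than cysteine number. The number of cysteines next to tryptophan correlated with the change at -0.05 under label 150 and the number next to aspartate at -0.02. The 5 variants with no cysteine next to a tryptophan had a median of -6.31, and the 95 others one of -4.04. Among the peptides with 4 cysteines the medians were -7.13 with no such cysteine (3 peptides), -4.72 with 1 (11), -4.64 with 2 (11), -3.86 with 3 (8) and -4.29 with 4 (2). Among those with 3 cysteines the medians were -3.93 with none (1 peptide), -2.66 with 1 (12), -1.77 with 2 (13) and -3.44 with 3 (4), so the order differed between the classes.

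The 17 variants with no cysteine next to a remaining glycine had a median of -2.35, and the 83 with such a neighbour one of -4.39. The parents of these classes had medians of 0.44 and 0.18. Cysteine number differs between these classes as well, and the part of each was not tested.

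At the same positions of the same parents, cysteine gave the lowest 24 h change among the 11 residues that replaced glycine in 48 of 100 parents under label 150 and in 52 under label 200. It was among the lowest 3 in 86 and 88 of them. The class medians under label 150 at 24 h were -4.07 for cysteine, -1.50 for valine, -0.94 for serine, -0.93 for isoleucine, 0.46 for alanine, 0.47 for threonine, 0.56 for glutamine, 0.61 for leucine, 0.87 for proline, 0.88 for methionine and 0.90 for asparagine. Methionine, the other residue that carries sulfur, was second highest under label 150, below asparagine, and under label 200 its median of 0.97 was below those of asparagine (1.04) and proline (0.98). These ranks are a description and were not tested.

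By 72 h, 95 of 98 tested variants had fallen against 0 h under label 150 and 95 of 98 under label 200, with 0 risen under either label. Of all 8703 entries tested under label 150, 88.6% fell and 1.96% rose, and of all 8755 tested under label 200, 91.2% fell and 1.88% rose. The series' counts therefore stood close to the library's own. At an unadjusted p below 0.05, 0 were higher under either label, while DESeq2 called 2 higher under each and the fit with the block called 2 higher under label 150 and 1 under label 200, against 4.49% and 3.44% of all tested entries. The median fitted log2 change was -10.72 for the variants and -8.40 for all tested entries under label 150, and -8.56 and -6.65 under label 200. Of the series, 60 variants had no read at 72 h under label 150, where its median abundance was 0 CPM. The value of -10.72 therefore depends on how the fit treats unread peptides and on their 0 h level. It does not measure how much further than the library the variants fell. Comparisons at 48 and 72 h all use the same 0 h libraries, so they are not independent of one another. They also join antibiotic with time in culture, since no untreated culture at 48 or 72 h is among the samples.

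Parents fell less often at 72 h. Under label 150, 59 parents fell, 4 rose, 34 did not pass and 3 were not tested, and under label 200 the counts were 72, 4, 21 and 3. In the test of each variant against its own parent, 64 of 100 pairs were lower and 1 higher under label 150, against 21.9% and 11% of all 1897 pairs. Under label 200, 56 were lower and 3 higher, against 16.4% and 15.7%. With the block the counts were 84 lower and 5 higher under label 150 (background 39.3% and 30.2%), and 77 and 6 under label 200 (31.1% and 34.4%).

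Of the lower pairs, 61 of 64 under label 150 and 53 of 56 under label 200 had both peptides at the read minimum. Reads at 0 h alone can meet that minimum, so it does not show that the variants were read at 72 h. The 3 higher pairs under label 200 rest on little reading of the variant. In one of them the variant, entry 8721, had no read in any library, so the difference reports its parent alone. In the pair of entry 8772 (cysteines at 7, 10, 12 and 14), also the only higher pair under label 150, the variant averaged 0.14 CPM under label 200 and 24.7 CPM at 0 h, and its parent 0.349 and 146 CPM. In the pair of entry 8755 (cysteines at 3, 7, 8, 15 and 20), the variant averaged 1.49 CPM under label 200 and 113 CPM at 0 h, and its parent 0.815 and 651 CPM. Both peptides of these pairs were thus almost lost, and the variant had begun lower.

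Set directly against the serine variant at the same positions, more cysteine variants were lower than higher. In the limma test of cysteine minus serine variant at 72 h against 0 h, 35 of 100 pairs were lower and 8 higher under label 150, against 67.2% and 3.1% of 1000 pairs of a cysteine variant with any other glycine substitution. Under label 200, 28 were lower and 4 higher, against 60.7% and 2.6%. With the block 43 were lower and 9 higher under label 150 (73.9% and 4.6%), and 46 and 8 under label 200 (71.5% and 5.6%). The median difference was -1.36 under label 150 and -1.26 under label 200. Over the pairs with all other residues it was -4.44 and -3.65, so the serine pairs differed less in the median than the pairs of all 10 residues together. The cysteine variants had begun higher, with a median of 296 CPM at 0 h against 157 CPM for the serine variants. At 72 h these medians were 0 and 0.127 CPM under label 150, and 0.932 and 0.966 CPM under label 200. Near the floor a higher start gives a larger fall, and its part in these differences was not tested. Both peptides reached the read minimum in 32 of the 35 lower pairs and 6 of the 8 higher pairs under label 150, and in 25 of 28 and 3 of 4 under label 200. Reads at 0 h alone can meet it here too.

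Most of what remained of the series at 72 h was held by 3 peptides. Peptides J, K and L carried 82.7% of the series' reads under label 150 and 86.5% under label 200. The 3 most abundant variants carried 12.6% at 0 h, when other peptides led. Variants with a mean of at least 10 CPM numbered 15 at 72 h under label 150 and 9 under label 200, and 98 at 0 h. All 9 were among the 15, that is 9 of 9 and 9 of 15.

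The 15 peptides comprised the 1 with a single cysteine, 5 of the 11 with 2 cysteines, 6 of the 30 with 3 and 3 of the 35 with 4, but 0 of the 20 with 5 and 0 of the 3 with 6. The 9 comprised 1, 3 and 5 peptides with 1, 2 and 3 cysteines, and 0 of the 9 had adjacent cysteines, while 3 of the 15 did. Adjacent cysteines occur in 4 of the 30 peptides with 3 cysteines and in 22 of the 35 with 4, so the classes from which the 9 came hold few of them. At 24 h under label 150, 10 variants stood above untreated cells in mean log2 CPM, all with 1 to 3 cysteines, and these 10 were all among the 15.

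Without J, K and L the other 97 variants kept 0.662% of their 0 h share at 72 h under label 200, and the stop-first entries 1.07%. Under label 150 the other variants kept 1.66%, and the stop-first entries 0%. J, K and L were left out because they were highest at 72 h under label 200, so the choice itself lowers the remainder. No entry was left out of the stop-first set, so these shares are not a like comparison. Under label 200 at 24 h the stop-first entries had 13.9% of their 0 h share, while in untreated cells at 24 h they had 7.18%. Reads of sequences that cannot encode a peptide were therefore present under label 200 throughout, and their part in the residual levels of the variants was not tested.

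Peptide J, with its only cysteine at position 7, was the only variant to rise against 0 h in the fit without the block, and did so at 48 h. At 48 h under label 150 its 5 libraries read 707, 2476, 779.6, 1049.7 and 3052 CPM in barcode order, against 231, 706, 215, 256 and 1009 CPM at 0 h. At 48 h under label 200 they read 764, 2382, 679, 915 and 2989 CPM. Each library stood above its own barcode at 0 h, although the ranges of the groups overlapped because barcodes 2 and 5 were high throughout. The log2 change was 1.74 ± 0.734 under label 150 (SE, edgeR adjusted p = 0.0335), where 2.18% of all 8708 tested entries rose and 83% fell. It was 1.68 ± 0.783 under label 200 (edgeR adjusted p = 0.0442), where 2.49% of 8853 rose and 84.6% fell. In these comparisons 1 of 98 variants rose and 89 fell under label 150, and 1 rose and 91 fell under label 200. With the block 3 rose and 94 fell under label 150, against 7.11% and 88.3% of all tested entries, and 2 rose and 95 fell under label 200, against 6.01% and 89.1%. Leaving out barcode 1, 2, 3 or 4 ended the call under label 150 in edgeR without the block (adjusted p 0.0519 to 0.0694). So did leaving out any barcode under label 200 (0.0548 to 0.0832). Peptide J was among the variants that rose with the block under both labels.

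At 72 h peptide J averaged 1329 ± 801 CPM under label 150 and 865 ± 572 CPM under label 200, against 484 ± 358 CPM at 0 h (SD, n = 5). All 5 barcodes were higher than at 0 h under both labels. The log2 changes of 1.46 and 0.84 did not pass (edgeR adjusted p = 0.0666 and 0.308), and passed with the block (1.55 and 0.89, adjusted p = 5.65e-06 and 3.3e-06). Its parent averaged 1026 ± 935 CPM under label 150 and 872 ± 825 CPM under label 200, against 220.2 ± 217 CPM at 0 h. The parent rose by a log2 change of 2.22 (edgeR adjusted p = 0.0253) and 1.99 (0.0277). Peptide J minus its parent changed by -0.76 under label 150 and -1.16 under label 200 in limma (adjusted p = 0.568 and 0.384), lower in 5 of 5 barcodes each, and passed with the block (0.0314 and 0.00752).

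Peptide K, with cysteines at positions 4 and 9, was the second most abundant variant at 72 h under both labels. Its 5 libraries read 237, 1239, 1863, 1605 and 1545 CPM under label 150 and 92.1, 527, 839, 635 and 619 CPM under label 200, against 123, 748, 1217, 890.1 and 892 CPM at 0 h. Every barcode was above its 0 h value under label 150 and below it under label 200. Neither log2 change passed the test (0.75 with adjusted p = 0.341, and -0.51 with adjusted p = 0.534, in edgeR). With the block both passed (0.78, adjusted p = 0.000104, and -0.50, adjusted p = 0.0101). The value under label 200 turned to 4.18 with TMM factors and to 2.10 with DESeq2, which move the median of all entries up by 4.40 and 2.40. The parent of K averaged 992 ± 1266 CPM under label 150 and 848 ± 1073 CPM under label 200, against 286 ± 319 CPM at 0 h, with log2 changes of 1.79 and 1.57 (edgeR adjusted p = 0.0652 and 0.0772). Peptide K minus its parent changed by -0.89 and -1.96 (limma adjusted p = 0.512 and 0.137), and both passed with the block (0.0361 and 0.000775).

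Peptide L, with 3 separate cysteines, did not pass the test at 72 h while its parent rose. At 72 h it read 309, 279, 376, 2.55 and 385 CPM under label 150 and 166, 117, 182, 1.35 and 216 CPM under label 200, against 193, 366, 592, 2.52 and 682 CPM at 0 h. Barcode 4 was low in every group from 0 h on. Its log2 changes of -0.44 and -1.43 did not pass (edgeR adjusted p = 0.684 and 0.134), and the label 200 value passed with the block (-1.30, adjusted p = 2e-06). With TMM factors that value turned to 3.46. The parent averaged 7184 ± 4697 CPM under label 150 and 6729 ± 4687 CPM under label 200, against 520 ± 336 CPM at 0 h, and rose by 3.79 and 3.69 on the log2 scale (adjusted p = 0.0001 and 3.52e-05). The pair difference was -3.98 under label 150 (limma adjusted p = 0.0776, and 8.18e-05 with the block) and -4.77 under label 200 (0.0333).

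The serine variant of L was nearly lost. It had 0 reads at 72 h under label 150 and 16 reads under label 200, against 3438 reads at 0 h. The cysteine minus serine difference was 8.25 and 6.56 in limma (adjusted p = 0.000191 and 0.00123), higher in 5 of 5 barcodes under each label. Since the serine variant had no read under label 150, the size of 8.25 depends on the prior count. For peptide P the difference ran the other way, as given below.

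Peptide M, also with 3 separate cysteines, fell by 72 h but not by 24 h. At 24 h it averaged 619 ± 365 CPM under label 150 and 527 ± 245 CPM under label 200, against 377 ± 190 CPM in untreated cells, and the changes did not pass without the block (edgeR adjusted p = 0.504 and 0.703). With the block they passed (0.66, adjusted p = 0.00324, and 0.53, adjusted p = 0.0363). At 72 h it averaged 118 ± 55.4 CPM under label 150 and 47.7 ± 24.8 CPM under label 200, against 428 ± 177 CPM at 0 h. The log2 changes were -1.86 and -3.17 (edgeR adjusted p = 0.0193 and 0.000663), with all 5 barcodes lower under both labels; with TMM factors the label 200 value was 1.43 and did not pass (adjusted p = 0.143).

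Peptide N shows a loss from the largest starting share. At 72 h it read 84.1, 12.98, 18.2, 12.7 and 11.6 CPM under label 150 and 28.9, 3.57, 5.01, 7.42 and 1.32 CPM under label 200, against 7409.8, 1005, 2190.0, 848 and 721 CPM at 0 h. No library under either label reached any library at 0 h. The log2 change was -6.44 under label 150 and -8.03 under label 200 (edgeR adjusted p = 9.16e-06 and 1.86e-08). Without antibiotic it averaged 4247 ± 5223 CPM at 24 h, against 2435 ± 2842 CPM at 0 h, higher in 5 of 5 barcodes, which did not pass without the block (adjusted p = 0.542) and passed with it (0.73, adjusted p = 1.8e-13). Its parent was read at only 11.5 ± 6.55 CPM at 0 h.

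Peptide P, with a run of 3 cysteines at its N terminus and another at its C terminus, had the lowest pair difference from its parent under both labels at 72 h. At 72 h it had no read under label 150 and 0.698, 0, 0, 4.05 and 1.76 CPM under label 200, against 1543, 698, 149, 851 and 627 CPM at 0 h. By the floor of 3 counts over the 5 libraries it was at least 2419-fold lower under label 150. Under label 200 it fell by 9.29 on the log2 scale (edgeR adjusted p = 1.23e-08). Its parent averaged 1478 ± 1452 CPM under label 150 and 1121 ± 1125 CPM under label 200, against 104 ± 101 CPM at 0 h, and rose by 3.83 and 3.44 (adjusted p = 0.00637 and 0.00124).

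The serine variant of P passed the test in neither direction. It averaged 140.1 ± 76.7 CPM under label 150 and 66.3 ± 31.8 CPM under label 200, against 127 ± 56.3 CPM at 0 h, and neither change passed (0.15 and -0.93, edgeR adjusted p = 0.847 and 0.282). For P, the cysteine minus serine difference was -9.15 under label 150 and -7.41 under label 200 in limma (adjusted p = 2.78e-07 and 3.11e-06), lower in 5 of 5 barcodes each. The cysteine minus parent difference was -11.7 under label 200 (limma adjusted p = 3.82e-05) and a fitted -12.66 under label 150. Peptide P had no read under label 150, so both -9.15 and -12.66 depend on the prior count.

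Peptide Q, with 3 separate cysteines near its middle and C terminus, also fell while its parent rose. It averaged 8.55 ± 5.94 CPM under label 150 and 3.24 ± 2.65 CPM under label 200 at 72 h, against 449 ± 385 CPM at 0 h. The log2 changes were -5.70 and -7.08 (edgeR adjusted p = 1.51e-05 and 1.16e-07). Its parent averaged 4705 ± 4429 CPM and 3985 ± 4126 CPM under labels 150 and 200, against 1002 ± 724 CPM at 0 h, and rose by 2.23 and 1.99 (adjusted p = 0.00986 and 0.0158). Its serine variant averaged 702 ± 529 CPM and 508 ± 399 CPM under the labels, against 242 ± 130.1 CPM at 0 h, with changes of 1.53 and 1.07 that did not pass (adjusted p = 0.0687 and 0.212).

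Peptide R, with 6 cysteines in 3 adjacent pairs, fell by 24 h. At 24 h it read 0, 2.1, 1.42, 8.56 and 8.97 CPM under label 150, against 634, 303, 687, 502 and 475 CPM in untreated cells. The groups did not overlap, and it fell by 6.96 on the log2 scale (edgeR adjusted p = 0.00446). Under label 200 at 24 h it averaged 15.4 ± 13.1 CPM and fell by 5.07 (adjusted p = 0.0169). Its parent averaged 176 ± 173 CPM under label 150 and 175 ± 172 CPM under label 200 at 24 h, against 149.7 ± 136 CPM in untreated cells. At 72 h R had no read under label 150, at least 2001-fold below 0 h.

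Peptides with no read at 72 h included 2 under label 200 that had been read at 0 h. Entry 8729 (cysteines at 2, 3, 4 and 17) was at least 1472-fold lower and entry 8752 (cysteines at 4, 5, 10, 13 and 18) at least 956-fold lower than at 0 h. The first had no read at 24 h under label 150 either, at least 600.2-fold below untreated cells at 24 h. In all, 60 of the 100 variants had no read at 72 h under label 150 and 3 under label 200, and of the parents 7 and 2.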

How the data were processed

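Reads were assigned to the library with cutadapt and STAR, per the submitters' processing notes, which give no versions or order of use. The deposited table holds raw counts per designed entry, with 5 barcode columns for each of 11 samples, as the authors provided it. From these, CPM values (counts scaled to a common library total) were computed. Single entries with a mean of at least 10 counts were tested with edgeR 4.0.16 (quasi-likelihood, total-count scaling) in R 4.3.3, and differences between a variant and its parent or serine variant with limma 3.58.1 on log2 CPM with a prior count of 2. Benjamini-Hochberg adjustment ran over all entries or pairs tested, at a threshold of 0.05. Alternatives were TMM factors, DESeq2 1.42.0, other filters and prior counts, single barcodes left out, and the barcode number as a block. The number pairs the libraries: deviations from group means correlated at 0.55 to 0.954 between libraries of the same number and at most -0.111 between others, in all 10 comparisons. Named peptides are those with the most or fewest cysteines, the highest abundance, the largest changes or the largest differences from the parent. The members, lists and tests were chosen with earlier results of these data known. The statistics were tested on simulated data with the same spread for every entry and no pairing by barcode. That check does not show how they perform on these paired libraries.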

Additional observations from a re-analysis of the deposited data

Results flagged for a closer look

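A library far from the other 4 of its group was found for 3 peptides among 77 groups of 5 libraries checked, where chance gives about 1 such group in 20. Peptide K read 212 CPM in barcode 1 at 24 h under label 200, where the median of the other barcodes was 2255 CPM. Peptide L read 2.55 CPM in barcode 4 at 72 h under label 150, where the median of the others was 343 CPM. Entry 8777 read 1346 CPM in barcode 4 at 12 h under label 200, against a median of 278 CPM in the others, and 434 CPM in the same barcode at 48 h, against 62.9 CPM. The low barcodes of K and L were already low at 0 h.

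Among 87 pairs of peptide and time checked, peptide K at 72 h was the case in which all 5 barcodes moved one way under one label and all 5 the other way under the other. It averaged 1298 CPM under label 150 and 542 CPM under label 200, against 774 CPM at 0 h. The difference between the labels was not tested.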

How the results depend on the processing

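Of the counts of calls recomputed under the alternatives, 232 stayed within 1.5 times their value and 90 did not. Of the values of single named peptides and pairs, 3680 kept direction and call, 195 newly passed, 196 no longer passed and 13 turned in sign. The cause of each was not tested, other than the fewer libraries, entries or pairs that an alternative itself leaves. Higher counts precede lower ones in each pair that follows. With the replicate block, in which barcode numbers pair the libraries, single variants gave 40 and 18 in untreated cells at 12 h against 0 h, 32 and 19 at 24 h, 9 and 74 under label 150 at 12 h, 2 and 58 under label 200 at 12 h, 5 higher under label 150 at 24 h, 4 and 84 under label 200 at 24 h, and 3, 2, 2 and 1 higher at 48 h (labels 150, 200) and 72 h (150, 200). Pairs with the parent gave 24 and 16 in untreated cells, 1 and 81 under label 150 at 24 h, 2 and 81 under label 200 at 24 h, and 5 and 6 higher at 72 h; pairs with serine under label 200 gave 8 and 46. With DESeq2, 3 were higher in untreated cells at 12 h and at 24 h, 0 lower at 12 h, 58 lower under label 200 at 24 h, and 2, 3, 2 and 2 higher at 48 and 72 h; with TMM factors 0 were lower in untreated cells at 12 h and 2, 4, 2 and 3 higher at 48 and 72 h. Without the read filter 2 and 1 were lower in untreated cells at 12 and 24 h. At a minimum mean of 50 reads 0 were lower at 12 h and 0 higher at 48 h under label 200. For parent pairs, a prior count of 10 gave 12 lower under label 150 at 24 h, a prior count of 0.5 gave 1 higher under label 200 at 72 h, and requiring the read minimum of both peptides gave 5 lower at 24 h and 0 higher at 72 h under label 200. For serine pairs under label 200, prior counts of 0.5 and 10 gave 2 and 7 higher.

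Leaving out single barcodes gave 0 to 0 lower in untreated cells at 12 h, 0 to 1 at 24 h, 59 to 66 lower under label 150 and 0 to 0 under label 200 at 24 h, and 0 to 1 and 0 to 0 higher at 48 h under labels 150 and 200. Parent pairs gave 8 to 13 and 0 to 1 lower at 24 h and 0 to 1 higher at 72 h under each label, and serine pairs 3 to 6 higher under label 150. Signs turned for entry 8729 in untreated cells at 24 h with the block (-0.24). Under label 200 at 48 h they turned with TMM factors for entry 8724 (1.56), entry 8745 (2.32) and L (3.39), and with DESeq2 for the first (0.46) and L (2.21). Under label 200 at 72 h they turned with TMM factors for M (1.43), entry 8724 (0.42), entry 8745 (0.94), K (4.18), L (3.46) and entry 8777 (0.15), and with DESeq2 for K (2.10). TMM factors moved the median log2 change of all entries up by 0.07 to 4.40 and DESeq2 by 0.03 to 2.40 over the 10 comparisons, and the median of the cysteine series kept its sign in each. Depth limits the late comparisons, since 3 reads over a group at 72 h correspond to 0.302 CPM under label 150 and 0.234 CPM under label 200.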
